A study of Mus musculus with 4 samples.

Results

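The proteasome subunit genes of mouse, those whose symbols run from Psma to Psmg with a number, were compared between IL-10+ and IL-10- regulatory T-cells. They were found through the annotation of the array: a probe set counted for a gene only when it named that gene alone, and each gene was represented by its brightest probe set, the one with the highest mean over the 4 arrays. This gave 47 of the 18193 genes with a probe set of their own, and 100 of the 45037 probe sets. Psme2 was the 1 listed gene left out, since its probe set also names a second gene. All samples were CD4+CD25+ T-cells from lymph nodes of C57Bl/6 mice aged 6 to 12 weeks, taken on day 3 after an injection of D665, a superagonistic antibody to CD28 (CD28SA). The cells were cultured overnight in 2 ml with IL-2 (200 U/ml) and antibodies to CD28 (5 µg/ml) and CD3 (2 µg/ml), then stained for IL-10 and sorted into 2 IL-10+ samples (replicates 1 and 2) and 2 IL-10- samples (replicates 3 and 4), each run on 1 Affymetrix array. Both groups thus carry the CD28SA injection and the culture, and there was no untreated group. The sources do not say whether samples of a group came from separate mice or sorts, so the p-values rest on a spread that may be technical.

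The proteasome is the barrel-shaped protease that degrades ubiquitin-tagged proteins in the cytoplasm and nucleus. Its 20S core is built of stacked rings of alpha subunits, which form the gate, and beta subunits, of which Psmb5, Psmb6 and Psmb7 carry the active sites. The 19S cap has a base of ATPases (Psmc genes), which unfold the substrate, and a lid (mostly Psmd genes), which removes ubiquitin. In lymphocytes, and elsewhere under interferon gamma, Psmb8, Psmb9 and Psmb10 take the places of Psmb5, Psmb6 and Psmb7 and give the immunoproteasome, known for making peptides for MHC class I. Psme1 and Psme2 form the PA28 activator, which is also induced by interferon gamma, and the Psmg genes encode chaperones that assemble the core.

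The arrays of a group were close to each other and the groups stood apart: correlations over all probe sets were at least 0.996 within groups and at most 0.976 between them, with array medians of 6.31 to 6.41. Il10 had a mean of 12.01 where cells were sorted as IL-10+ and of 10.39 in the others, in the direction of the labels, and Foxp3, which defines regulatory T-cells, had means of 10.83 and 11.55. Of 9 markers of CD4 T-cells and regulatory T-cells, 4 were higher in IL-10+ samples, namely Il10, Ctla4 (0.87), Cd4 (0.51) and Cd3g (0.41). Foxp3 (-0.72) and Ikzf2 (-0.55) were lower, and 3 did not pass, among them Il2ra (-0.22). Markers of other cell types moved with the groups. Of 14 measured B cell and plasma cell markers 10 were lower in IL-10+ samples and 0 higher, and their summed linear level lay between 6252 and 6467 on the IL-10+ arrays and between 17380 and 18930 on the IL-10- arrays, with 6 of the 14 below the median level of all probe sets (6.37). Most of the sums came from Ighm, and on the IL-10- arrays also from Igha. Differences were uneven, at -5.45 in Igha, -2.75 in Jchain and Mzb1 and -0.58 in Cd79a, while Pax5 and Tnfrsf17 did not pass. Of 6 genes of MHC class II presentation 5 were lower, with sums of 1363 to 1387 against 4130 to 4206. Of 5 NK cell markers 3 were lower (differences of -1.13 in Klrd1, -0.62 in Eomes and -0.52 in Klrk1) and Nkg7 was higher (0.79), with sums of 2010 to 2098 against 1399 to 1471. Nkg7 made up most of these NK sums. Of 10 dendritic cell and macrophage markers 0 were lower and 3 higher (Cd14 by 0.49, Csf1r by 0.30 and Xcr1 by 0.24), with sums of 838 to 856 against 760 to 783 and 7 of the 10 below the median level. In 4 control transcripts added to the RNA, the probe sets at the 5' end stood 1.22 higher on the IL-10+ arrays (median, log2 scale), those in the middle by 0.82 and those at the 3' end by 0.04. The part of these differences in the results below was not tested. B cells and plasma cells also express proteasome genes, including those of the immunoproteasome.

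All 3 immunoproteasome genes were lower in IL-10+ than in IL-10- cells, and so was Psme1, whereas most genes of the core and the cap did not pass the test. Falls of like size were also seen in other members, namely Psmg4, Psmc4 and Psmd3. Differences are IL-10+ minus IL-10- on the log2 scale, and a gene was called when its p-value from limma, adjusted over all 45037 probe sets, was under 0.05. Over the 47 genes, 16 fell, 4 rose and 27 did not pass, with a median difference of -0.08 and a range from -0.72 to 0.70. Over all 18193 genes, 22.9% were lower and 8.37% higher, with a median of -0.01, so the members' 34.0% lower was above the background and their 8.5% higher close to it. Proteasome genes are bright, however, and bright genes were lower more often. Among the 3530 genes with a mean of 9 or more, 45.5% were lower and 14.7% higher, with a median of -0.19, against 15 (36.6%) and 3 (7.3%) of the 41 members in that range. The module as a whole was therefore not called lower more often than genes of like brightness. The count of 16 came down to 10 without IL-10+ replicate 1, and the 4 that rose came to 7 without IL-10- replicate 3. Fewer cells with a transcript and less RNA per cell cannot be told apart in such bulk samples.

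**Figure D1:**
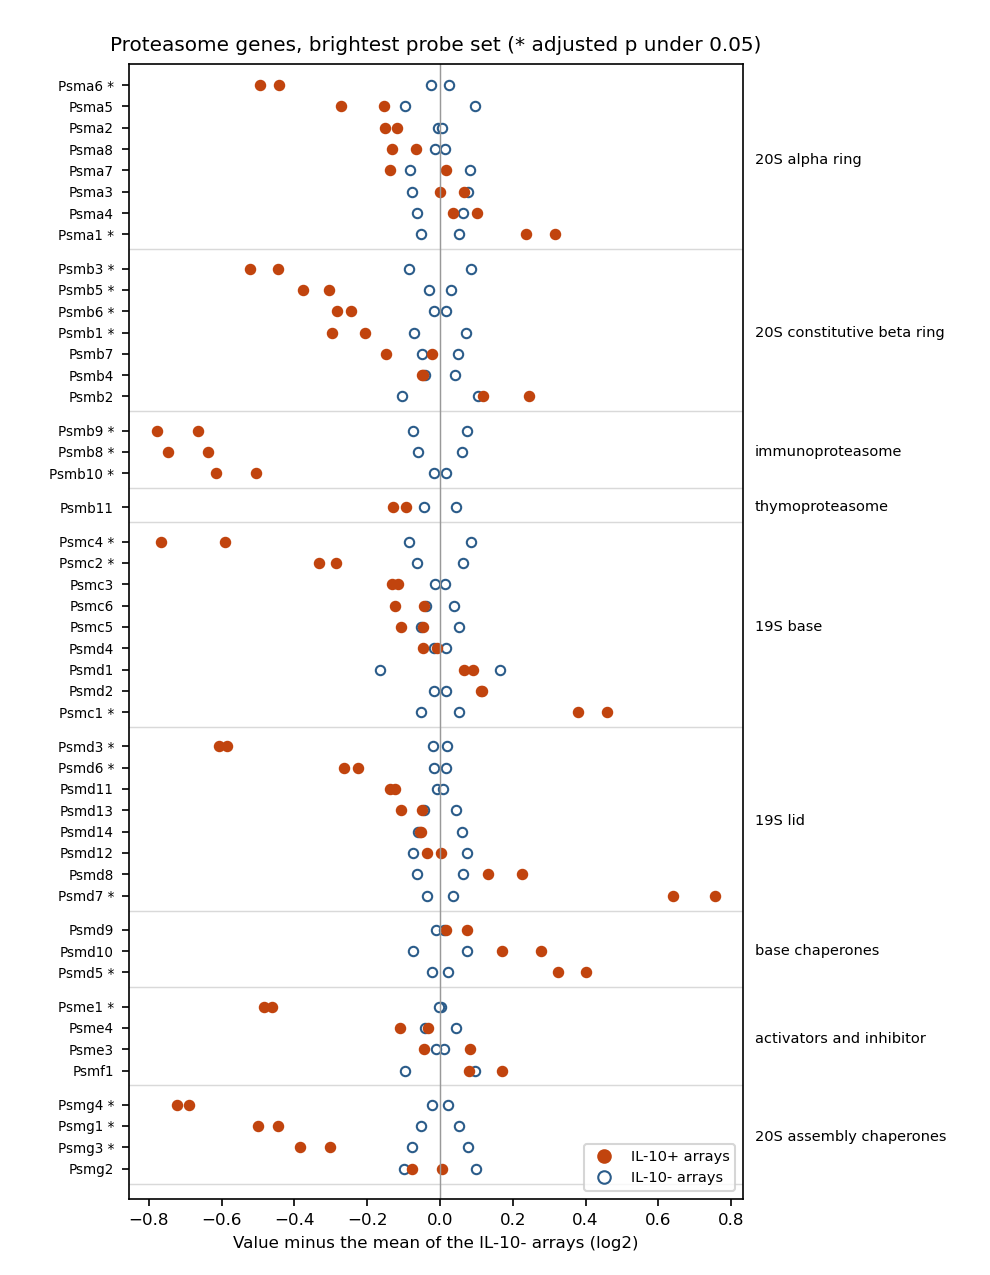
Values of the proteasome genes on each of the 4 arrays, by brightest probe set, as the log2 value minus the gene's mean over the IL-10- arrays (filled, IL-10+; open, IL-10-; asterisk, adjusted p under 0.05). Both IL-10+ points of the 3 immunoproteasome genes and of Psme1 lie left of the IL-10- points, and those of Psmd7 lie right of them. Such separation is not particular to these genes, and members that did not pass, such as Psma2 and Psmc3, show it too.

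**Figure D2:**
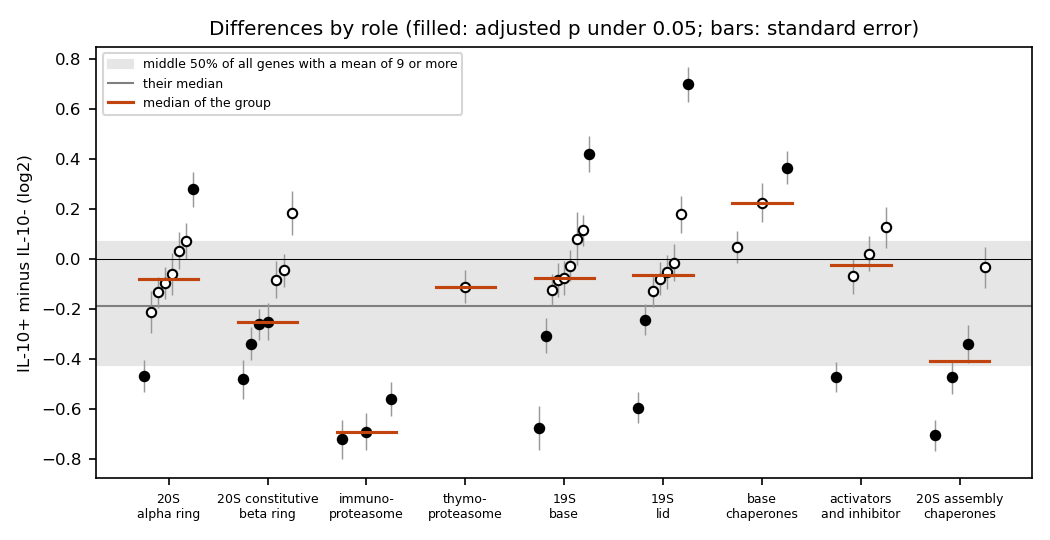
IL-10+ minus IL-10- difference (log2) of each of the 47 genes, grouped by role, with bars for the standard error of the fit and filled points for an adjusted p under 0.05. The grey band is the middle 50% of the 3530 genes with a mean of 9 or more and its line their median (-0.19); the red lines are group medians, of which the immunoproteasome (-0.69) lies below the band.

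The immunoproteasome subunits were described one by one. Psmb8, which replaces Psmb5 and gives the chymotrypsin-like site of the immunoproteasome, had values of 11.40 and 11.51 in IL-10+ samples and 12.09 and 12.21 in IL-10- samples. Its difference was -0.69 (standard error 0.07, adjusted p = 0.000408), so that IL-10- samples were 1.62-fold higher. Both IL-10- arrays were above both IL-10+ arrays, as they were for its dimmer probe set, with values of 7.42 and 7.48 against 8.26 and 8.34 (difference -0.85, adjusted p = 0.000105). Psmb9, which replaces Psmb6, had values of 10.55 and 10.67 in IL-10+ samples and 11.26 and 11.41 in IL-10- samples. It fell by 0.72 (standard error 0.08, adjusted p = 0.000418), with IL-10- samples 1.65-fold higher. The groups did not overlap. Psmb10, which replaces the trypsin-like Psmb7, had values of 9.79 and 9.90 against 10.39 and 10.42, again with no overlap. Its difference was -0.56 (standard error 0.07, adjusted p = 0.000702), a 1.48-fold higher level in IL-10- samples. Members that did not pass, such as Psma2, Psmc3 and Psmd11, also had no overlap, so separation of the arrays does not set these 3 genes apart. Among the 3530 bright genes, 6.66% had a difference at or below that of Psmb9, 8.02% at or below that of Psmb8 and 14.9% at or below that of Psmb10. These 3 calls were kept in each of the 12 alternatives of processing at the same threshold.

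The constitutive subunits with active sites had smaller differences, and 2 of the 3 passed. Over all genes 22.9% were lower, and 45.5% of those with a mean of 9 or more, as these 3 had. Psmb5 had values of 11.29 and 11.36 in IL-10+ samples and 11.64 and 11.70 in IL-10- samples and fell by 0.34 (adjusted p = 0.00625). Psmb6 had values of 11.10 and 11.14 against 11.37 and 11.40 and fell by 0.26 (adjusted p = 0.016). Both calls were lost after quantile normalization, at -0.18 (adjusted p = 0.0654) and -0.11 (adjusted p = 0.244). That of Psmb5 was also lost without IL-10+ replicate 1 (-0.30), and that of Psmb6 without IL-10+ replicate 1 (-0.24) or 2 (-0.28). Psmb7 overlapped between the groups, with values of 11.67 and 11.79 against 11.76 and 11.86, and its difference of -0.09 (95% confidence interval -0.26 to 0.09, adjusted p = 0.462) did not pass. The difference of each immunoproteasome subunit from the subunit it replaces was then taken within each array. For Psmb8 minus Psmb5 it was 0.11 and 0.15 in IL-10+ samples and 0.45 and 0.51 in IL-10- samples, a change of -0.35. For Psmb9 minus Psmb6 it was -0.55 and -0.48 against -0.11 and 0.00, a change of -0.46. For Psmb10 minus Psmb7 it was -1.88 and -1.89 against -1.37 and -1.44, a change of -0.48. In all 3 pairs both IL-10+ arrays were below both IL-10- arrays. The groups stood apart over all probe sets, and how often other pairs of genes separate in this way was not counted. An exact two-sided permutation test of 2 against 2 arrays cannot go below p = 0.33, which each pair gave (adjusted p = 0.33 over the 3 pairs). The level of one probe set cannot be set against that of another, so only the change between the groups can be read from these values.

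**Figure D3:**
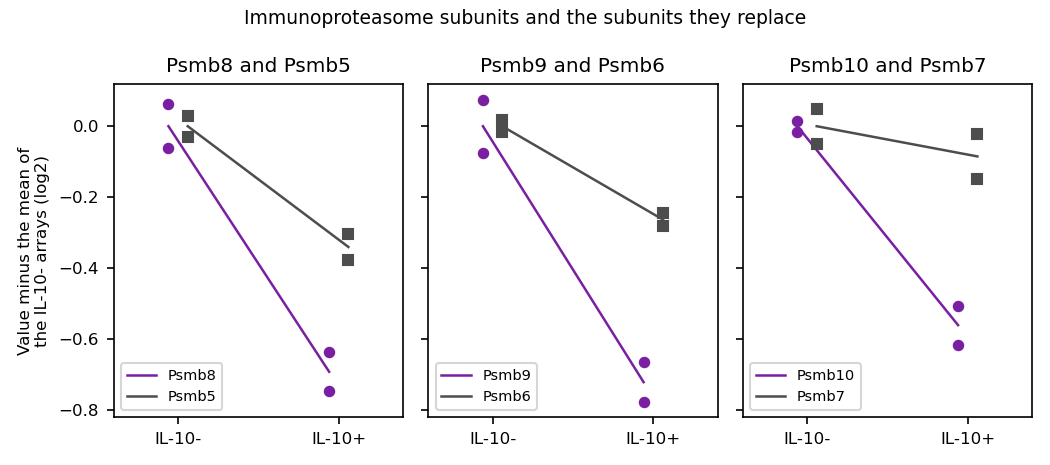
Values of each immunoproteasome subunit (purple circles) and of the constitutive subunit it replaces (grey squares) on the IL-10- and IL-10+ arrays, as the log2 value minus the gene's mean over the IL-10- arrays, with lines between group means. Each purple line falls further than its grey one, and Psmb7 shows the smallest change (-0.09).

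Promoter sequences of these genes are shown for the motifs through which interferons and the proteasome's own feedback factor are known to act. They were taken from RefSeq (GRCm38.p6), which held 39 of the 47 members, as 300 bases around each start, and searched on both strands for CCAAT (the box bound by NF-Y), TGACNNNGC (core of the antioxidant response element, read by Nfe2l1 and Nfe2l2), GAAANNGAAA (core of the interferon response element) and TTCNNNGAA (core of the gamma-activated site). The windows printed here hold 100 bases before and 50 after the start, 5′ to 3′ on the strand of the gene, with 1 match in capitals. The capitals mark the gamma-activated site core in Psmb8, the antioxidant core in Psmb5 and Psmb6, the CCAAT box (as its reverse complement) in Psmb9, and the interferon core in Psme1 and Psmg4, shown as members lower in IL-10+ cells that hold it.
Psmb8, chr17:34198095-34198244, plus strand: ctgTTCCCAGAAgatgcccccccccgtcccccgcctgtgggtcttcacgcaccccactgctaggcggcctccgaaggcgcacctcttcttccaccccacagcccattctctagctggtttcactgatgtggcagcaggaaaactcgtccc
Psmb5, chr14:54617946-54618095, minus strand: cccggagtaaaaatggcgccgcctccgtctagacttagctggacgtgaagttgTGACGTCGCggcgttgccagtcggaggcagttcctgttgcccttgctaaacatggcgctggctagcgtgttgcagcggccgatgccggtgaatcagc
Psmb9, chr17:34187281-34187430, minus strand: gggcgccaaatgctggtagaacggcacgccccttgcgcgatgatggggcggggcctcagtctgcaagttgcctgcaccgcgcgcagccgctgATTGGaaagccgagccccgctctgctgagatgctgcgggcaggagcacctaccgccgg
Psmb6, chr11:70525257-70525406, plus strand: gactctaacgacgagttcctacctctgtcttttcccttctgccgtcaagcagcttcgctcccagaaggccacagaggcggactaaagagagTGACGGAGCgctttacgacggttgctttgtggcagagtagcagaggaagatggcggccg
Psme1, chr14:55578394-55578543, plus strand: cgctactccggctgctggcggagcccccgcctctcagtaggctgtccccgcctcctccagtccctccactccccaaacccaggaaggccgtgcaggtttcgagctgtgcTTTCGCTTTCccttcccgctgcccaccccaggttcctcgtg
Psmg4, chr13:34162864-34163013, plus strand: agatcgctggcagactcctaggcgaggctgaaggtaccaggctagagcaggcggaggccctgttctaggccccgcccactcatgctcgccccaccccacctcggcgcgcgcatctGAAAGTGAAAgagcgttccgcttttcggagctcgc
The interferon core was found in 5 of the 39 members (12.8%: Psmb3, Psmd4, Psmd9, Psme1 and Psmg4) and in 3.99% of all 27025 genes. Of these 5, Psmb3, Psme1 and Psmg4 were lower in IL-10+ cells, and Psmd4 and Psmd9 did not pass. Of all 47 members 34.0% were lower, and of all genes 22.9%. Psmb8, Psmb9 and Psmb10 did not hold the interferon core in this window. A link between motif and difference was not tested. The gamma-activated site core stood in 3 members (7.69%: Psmb8, Psmd2 and Psmg1) against 9.55% of all genes, the antioxidant core in 6 (15.4%) against 14.0%, and CCAAT in 14 (35.9%) against 41.1%. A match describes letters in this window and is not a site of binding.

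In the 20S core most calls lay in the beta ring. Of 7 constitutive beta subunits 4 fell and 0 rose (median -0.25), and of 8 alpha subunits 1 fell and 1 rose (median -0.08). Over all genes 22.9% were lower and 8.37% higher. Among genes with a mean of 9 or more, as the 7 beta subunits had, 45.5% were lower and 14.7% higher, with a median of -0.19. The beta ring was thus near genes of like brightness. The difference between the rings was not tested. Psmb3, a beta subunit without an active site, had values of 11.35 and 11.43 in IL-10+ samples and 11.79 and 11.96 in IL-10- samples and fell by 0.48 (adjusted p = 0.00266), whereas its second probe set differed by 0.04 (adjusted p = 0.751). Psmb4, the beta subunit nearest to 0, differed by -0.05 (adjusted p = 0.659). Psma6, an alpha ring subunit, had values of 12.16 and 12.21 against 12.63 and 12.68 and fell by 0.47 (adjusted p = 0.00121). All 4 probe sets of Psma6 were below 0, and 3 of them passed. Psma1 went the other way, with values of 11.80 and 11.88 against 11.62 and 11.51 and a rise of 0.28 (adjusted p = 0.0208), a call that was lost after median centring (0.20, adjusted p = 0.0585). This call was also lost on averaging the probe sets of Psma1 (0.15, adjusted p = 0.138) and without IL-10+ replicate 1 (0.32) or 2 (0.24). Psma3 was nearest to 0 among the alpha subunits at 0.03 (adjusted p = 0.811). The thymoproteasome subunit Psmb11, known from the cortical epithelium of the thymus, was dim at a mean of 5.90 and did not pass (-0.11, adjusted p = 0.269). Without IL-10+ replicate 1, 2 of the 15 core genes fell instead of 5, and without IL-10+ replicate 2 it was 3.

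In the 19S cap 4 of 17 genes fell and 2 rose, with medians of -0.08 in the base and -0.07 in the lid. Over all genes 22.9% were lower and 8.37% higher. Among genes with a mean of 9 or more, as all 17 had, 45.5% were lower and 14.7% higher. The cap was thus not called lower more often than genes of like brightness. Psmc4, an ATPase of the base, had values of 10.93 and 11.11 in IL-10+ samples and 11.78 and 11.61 in IL-10- samples, a fall of 0.68 (adjusted p = 0.000963), and its second probe set fell by 0.32 (adjusted p = 0.00799). Psmc1, another ATPase, rose by 0.42 (adjusted p = 0.00325), with values of 10.21 and 10.29 against 9.89 and 9.78. Subunits of 1 ring thus went in both directions. Psmc2, also an ATPase, fell by 0.31 (adjusted p = 0.013), but its second bright probe set differed by -0.05 (adjusted p = 0.67), and the call was lost when IL-10+ replicate 1 (adjusted p = 0.0951) or 2 (adjusted p = 0.0556) was left out, and with quantile normalization (-0.14, adjusted p = 0.144). Psmd4, a ubiquitin receptor, was nearest to 0 in the base at -0.03 (adjusted p = 0.805), but its second probe set rose by 0.38 (adjusted p = 0.0177). In the lid Psmd3, a scaffold subunit, had values of 9.08 and 9.10 against 9.71 and 9.67 and fell by 0.60 (adjusted p = 0.000358). Psmd7, the partner of the deubiquitinase Psmd14, had the largest rise of the 47 genes. Its values were 9.41 and 9.53 in IL-10+ samples and 8.81 and 8.73 in IL-10- samples, a rise of 0.70 (adjusted p = 0.000313), so that IL-10+ samples were 1.62-fold higher. Averaged over its probe sets, the difference of Psmd7 was 0.12 and did not pass (adjusted p = 0.175). Psmd6 fell by 0.24 (adjusted p = 0.0219), a call lost when IL-10+ replicate 1 (adjusted p = 0.165) or 2 (adjusted p = 0.102) was left out, and with quantile normalization (-0.085, adjusted p = 0.412). Psmd12 was nearest to 0 at -0.02 (adjusted p = 0.909). Without IL-10+ replicate 1, or without replicate 2, 2 cap genes fell.

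Of the activators and the inhibitor 1 of 4 measured genes fell, where 22.9% of all genes and 45.5% of bright ones were lower. Psme1, the alpha subunit of PA28, had values of 11.93 and 11.90 in IL-10+ samples and 12.39 and 12.39 in IL-10- samples. The arrays of each group lay close together, and the fall of 0.47 (standard error 0.06, adjusted p = 0.000973) was kept in each alternative at the same threshold. Of the bright genes 20.8% had a difference at or below that of Psme1. Psme3, the nuclear PA28 gamma, differed by 0.02 (adjusted p = 0.887), Psmf1, which encodes the inhibitor PI31, by 0.13 (adjusted p = 0.320), and the brightest probe set of Psme4, the activator PA200, by -0.07 (adjusted p = 0.508). A dimmer probe set of Psmf1 fell by 0.29 (adjusted p = 0.0363).

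Of 4 assembly chaperones of the core 3 fell and 0 rose, and of 3 chaperones of the base 0 fell and 1 rose. Over all genes 22.9% were lower and 8.37% higher, and over bright genes 45.5% and 14.7%. The difference between these small groups of chaperones was not tested. Psmg4 had values of 8.57 and 8.60 in IL-10+ samples and 9.27 and 9.31 in IL-10- samples and fell by 0.71 (adjusted p = 0.000179). Psmg1 had values of 9.05 and 9.11 against 9.50 and 9.61 and fell by 0.47 (adjusted p = 0.00163), and Psmg3 fell by 0.34 (adjusted p = 0.0115). The call for Psmg3 was lost without IL-10+ replicate 1 (adjusted p = 0.0871). Psmg2, the partner of Psmg1, differed by -0.03 (adjusted p = 0.814) in the brightest of its 3 probe sets. Its second was nearly as bright, with a mean of 9.06 for both. That one had values of 8.73 and 8.88 against 9.35 and 9.27 and fell by 0.51 (adjusted p = 0.00191). The third, a dim one, did not pass (0.14, adjusted p = 0.275). Of the chaperones of the ATPase ring, Psmd5 had values of 8.94 and 9.01 against 8.59 and 8.63 and rose by 0.36 (adjusted p = 0.00444). Psmd10 (0.22, adjusted p = 0.0691) and Psmd9 (0.05, adjusted p = 0.667) did not pass, but a dim probe set of Psmd9 fell by 0.44 (adjusted p = 0.0055).

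The probe sets of a gene did not always move together. Over the 100 probe sets 26 fell, 12 rose and 62 did not pass, where 16.2% of all probe sets were lower and 13.6% higher. For 3 genes, Psmc2, Psmd7 and Psmd11, probe sets passed in opposite directions. Psmc2, whose brightest probe set fell, had a dim one that rose by 0.86 (adjusted p = 0.000122), and Psmd7, whose brightest rose, had one that fell by 0.35 (adjusted p = 0.0172). Psmd11, a lid scaffold with 8 probe sets, differed by -0.13 in the brightest (adjusted p = 0.165), and others of its probe sets were at -0.29, 0.28, 0.35 and 0.64, all of which passed. In 4 genes, Psma3, Psmd11, Psme4 and Psmg2, the brightest probe set did not pass while another passed with a difference of at least 0.5. Of these, the second probe set of Psma3 rose by 0.74 (adjusted p = 0.000453). A dimmer probe set of Psme4 had values of 9.55 and 9.45 in IL-10+ samples and 8.53 and 8.25 in IL-10- samples, a rise of 1.11 (adjusted p = 0.000176). It passed the threshold of the study in that direction, a difference of at least 1 with an adjusted p under 0.001, as 1.72% of all probe sets did, whereas 0 of the 47 brightest probe sets passed it in either direction. At an adjusted p under 0.05 in limma 20 of these 47 did. Legends of the study give differences as natural logs of the fold change, and the scale of the deposited values is not stated. Read as natural logs, the differences of Psmb9 (2.06-fold), Psmg4 (2.03-fold) and Psmd7 (2.01-fold) would pass the study's threshold, Psmb8 would lie at its edge (1.999-fold) and Psmb10 below it (1.75-fold), where 3.32% of all genes would be lower and 1.2% higher. The test at an adjusted p under 0.05 does not depend on the base. The 5' control values given above, in which probe sets at different places of 1 transcript differed, stand beside these disagreements, and their part was not tested.

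**Figure D4:**
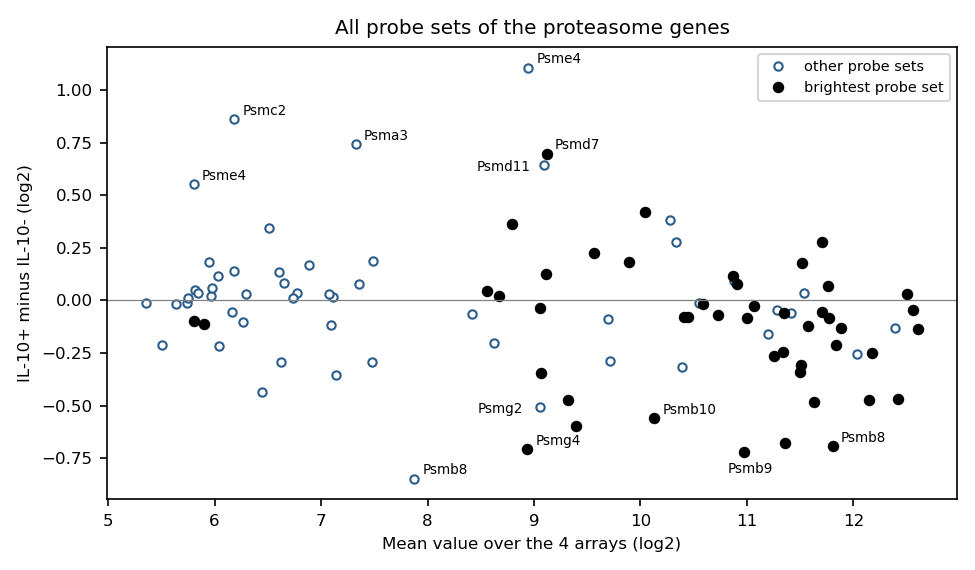
IL-10+ minus IL-10- difference (log2) against the mean value over the 4 arrays for all 100 probe sets of the 47 genes, with the brightest of each gene filled. Dimmer probe sets of Psme4 (1.11), Psmc2 (0.86) and Psma3 (0.74) lie above every brightest one, and both probe sets of Psmb8 lie low.

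Class I antigen processing, the pathway the immunoproteasome feeds, held genes of both directions. Of 11 measured genes 4 fell and 2 rose (median -0.15), where 22.9% of all genes and 45.5% of bright ones were lower. Those lower were Nlrc5, a transactivator of class I genes (-0.69, adjusted p = 0.000366), Tap1 (-0.67, adjusted p = 0.000246) and Tap2 (-0.24, adjusted p = 0.0393), which form the peptide transporter, and Tapbp, which tethers class I to it (-0.54, adjusted p = 0.000634). Those higher were the chaperones Pdia3 (1.27, adjusted p = 2.73e-05) and Canx (0.25, adjusted p = 0.0258). The class I genes themselves did not pass: B2m, the light chain, was at 0.00 (adjusted p = 0.996), and H2-K1 at -0.21 did not pass (adjusted p = 0.0511). Of 10 genes that carry the interferon signal to the immunoproteasome, 5 fell and 2 rose, where 22.9% of all genes and 45.5% of bright ones were lower. Irf1, a transcription factor that acts on Psmb9 and Tap1, fell by 0.64 (adjusted p = 0.00127), Irf8 by 0.67 (adjusted p = 0.000265) and the kinase Jak2 by 0.49 (adjusted p = 0.00241). Ifng itself rose by 0.71 (adjusted p = 0.000184), as did Socs1, a feedback inhibitor of the pathway (0.65, adjusted p = 0.0186).

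Psmb8 and Psmb9 lie with Tap1 and Tap2 in the MHC class II region of chromosome 17. Of 14 measured neighbours 11 were lower and 0 higher, where 22.9% of all genes and 45.5% of bright ones were lower. In the order of the chromosome, Rxrb differed by -0.64, H2-Oa by -0.61, Brd2 by -0.29, H2-DMa by -1.51 and H2-DMb2 by -0.91 on one side, and H2-Ob by -0.96, H2-Ab1 by -0.69, H2-Aa by -3.71 and H2-Eb1 by -1.55 on the other, all of them called. Slc39a7 (-0.20), Col11a2 (0.08) and H2-Eb2 (0.05) did not pass. Several of these neighbours are class II genes, of which H2-Aa, H2-Ab1, H2-Eb1 and H2-DMa also belong to the list of MHC class II presentation given above. Psmb10, which lies outside this region, was lower too.

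**Figure D5:**
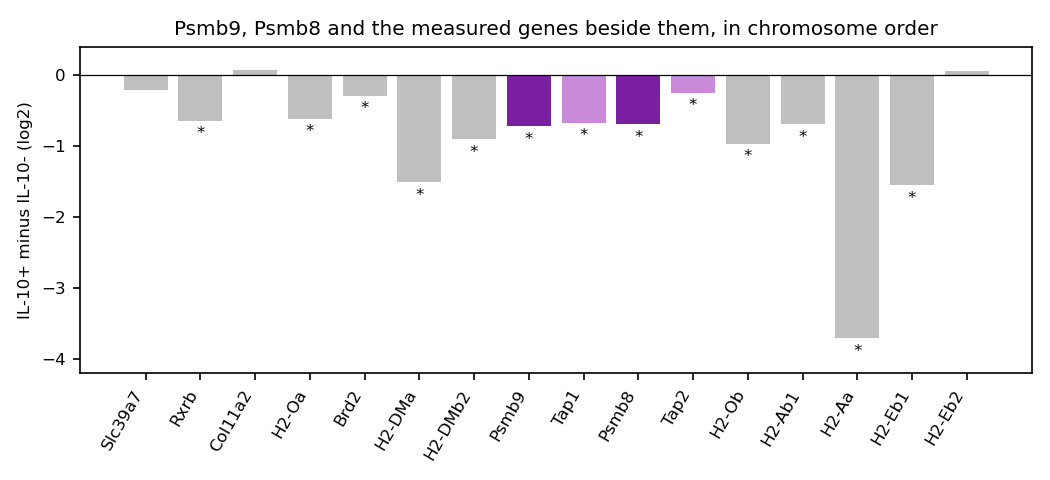
IL-10+ minus IL-10- difference (log2) of the genes around Psmb9 and Psmb8 in their order along chromosome 17, equally spaced and not to distance, with an asterisk for an adjusted p under 0.05, Psmb9 and Psmb8 in dark purple and Tap1 and Tap2 in light purple. Psmb9 (-0.72), Tap1 (-0.67) and Psmb8 (-0.69) lie close together in value, and H2-Aa (-3.71) is the lowest.

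Around the proteasome, 9 of 27 measured genes fell and 1 rose over 4 lists, where 22.9% of all genes were lower and 8.37% higher. Among genes with a mean of 9 or more, as many of the 27 had, 45.5% were lower and 14.7% higher. Of 7 other parts and helpers 1 fell, the thioredoxin-like Txnl1 of the cap (-0.31, adjusted p = 0.0201), while Pomp, which matures the core, did not pass (0.20, adjusted p = 0.0584). Among 10 genes of transcriptional control 3 fell and 1 rose. Nfya (-0.40, adjusted p = 0.00355), Nfyc (-0.40, adjusted p = 0.00902) and Nfyb (0.72, adjusted p = 0.000372) encode the subunits of NF-Y and went in both directions, and Keap1, which holds Nfe2l2 in check, fell by 0.26 (adjusted p = 0.0426). Nfe2l1, the feedback activator of proteasome genes, did not pass (0.07, adjusted p = 0.593). Of 9 shuttle factors and segregase genes, which bring ubiquitinated proteins to the proteasome, 4 fell and 0 rose, with Ubqln4 (-1.18, adjusted p = 2.66e-05), Faf1 (-0.68, adjusted p = 0.00045) and Ubqln1 (-0.43, adjusted p = 0.00916) the largest. Of the ubiquitin precursors and E1 enzymes only Uba6, an E1, had a probe set of its own, and it fell by 0.29 (adjusted p = 0.0136).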

How the data were processed

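RNA of 4 samples, 2 per group, was hybridized to 1 Affymetrix mouse genome array each. The authors normalized the signal intensities by variance stabilization and deposited their values for each probe set on a scale taken as log2; the sources used here do not give the log base of these values or the summary of probes, but legends of the study give its differences as natural logs of the fold change, so the folds printed here assume base-2 logs, and variance stabilization compresses differences of dim probe sets. The labels give 100 ng of RNA for labelling and the study's methods another amount.

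The groups were compared in R 4.3.3 by the moderated two-sided test of limma 3.58.1 (lmFit, eBayes, Benjamini-Hochberg) over 45037 of 45101 probe sets, leaving out 64 controls, with 5.44 prior and 2 residual degrees of freedom. On simulated data for this comparison (45037 probe sets), 44 of 100 changes of 0.5 and 97 of 100 of 1 were called, and 8 of 44837 unchanged probe sets. The annotation named 1 gene for 34945 probe sets, several for 932 and none for 9160. All 47 members matched RefSeq, with 0 symbols changed. The members, lists and rule were chosen with earlier results of these data known. The rule named the active-site subunits, activators and inhibitor, up to 3 called genes per direction and the one nearest 0 in each other list, genes whose probe sets disagreed, up to 3 called per direction in each pathway list, and Tap1, Irf1, Nfe2l1 and Pomp, with a further gene not reported here; Tap2, B2m, H2-K1 and the neighbours on the chromosome were added after their values were seen. The alternatives were quantile normalization, median centring, no dim probe sets, a trend or robust prior, averaging a gene's probe sets, no suffixes x or s, the study's threshold, leaving out each array, and, added after seeing the data, a fit on brightest probe sets only and the study's threshold with the values read as natural logs. The number of arrays limits the precision. Figures used Python 3.11.15 and matplotlib 3.10.9.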

Additional observations from a re-analysis of the deposited data

Results flagged for a closer look

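Probe sets that the comparison of genes did not use, since they were dimmer than another of the same gene, passed the test with a difference of at least 0.5 in 4 genes whose brightest probe set did not. They differed by 0.74 in Psma3, 0.64 in Psmd11, 1.11 and 0.55 in Psme4 and -0.51 in Psmg2. For 4 control transcripts that had been added to the RNA, also outside the comparison, the 5' end differed by a median of 1.22 log2 units between the groups.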

How the results depend on the processing

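Of 371 values of 31 named proteasome genes under the alternatives at the same threshold, 325 kept direction and side of the threshold, 18 lost the call, 3 gained it and 25 changed sign; 12 of the 19 called genes kept their call in every one. Of those that changed sign, 3 were called on at least one side, namely Psme4 (0.30) and Psmc2 (0.17) when a gene's probe sets were averaged and Psmd11 (0.28) without the suffixes x and s. The other 22, from 11 genes that passed neither way, were Psmb7 (0.056), Psme4 (0.042), Psmb4 (0.073), Psmd4 (0.11), Psmd12 (0.10), Psmg2 (0.036) and Psmd11 (0.0042) after quantile normalization, Psme3 (-0.057), Psma3 (-0.044) and Psmd9 (-0.031) after median centring, Psme3 (-0.012), Psmf1 (-0.10), Psmd4 (0.18), Psmd9 (-0.10) and Psmd11 (0.12) on averaging, and, leaving out 1 array, Psmd12 (-0.091 to 0.058), Psmg2 (-0.133 to 0.063), Psme3 (-0.044 to 0.081) and Psma3 (-0.045 to 0.109). The cause was not tested. After quantile normalization 11 proteasome genes were lower and 9 higher, with 2 lower in the core and 2 in the 19S cap; after median centring it was 19 lower and 3 higher. Over all probe sets the 7307 lower and 6133 higher became 10076 and 4668 after median centring, 3935 and 3243 when a gene's probe sets were averaged, which tests fewer features, and 4352 and 1665 with the brightest alone. At the study's threshold 259 were lower and 775 higher, and 0 proteasome genes were lower or higher, in the core, the immunoproteasome, the cap or the activators. With the values read as natural logs, the same threshold gave 988 lower and 1516 higher probe sets, and 2 proteasome genes lower and 1 higher, with 1 lower in the immunoproteasome and 0 in the core, the cap and the activators. Leaving out 1 array at a time gave 4676 to 8192 lower and 3994 to 7427 higher probe sets, 10 to 17 lower and 3 to 7 higher proteasome genes, 2 to 6 lower in the core, 2 to 4 in the cap, 3 in the immunoproteasome and 1 among the activators. Psmb8 ranged from -0.77 to -0.54, Psmb9 from -0.80 to -0.59, Psmb10 from -0.64 to -0.45 and Psme1 from -0.55 to -0.35. No paired analysis was run, since the labels only number the samples and do not say which IL-10+ and IL-10- samples came from the same sort. With 2 arrays a group, 44 of 100 changes of 0.5 were called in the simulated data. Far fewer probe sets changed there than were called in the real data, so a call needed a smaller p-value. The share missed therefore does not carry over to the proteasome genes. For the 27 of these that did not pass, the 95% confidence intervals lay between -0.41 and 0.41. Changes within these bounds may have been missed.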
